A study of Mus musculus with 2 samples.

Results

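A group of 10 genes for signals that call in and sustain immune cells was followed in GL261, a glioma line of the mouse, at the level of single cells. It holds the chemokines Cxcl10, Cxcl1, Cxcl12, Cxcl16, Cx3cl1, Ccl2, Ccl5, Ccl7 and Ccl20, and the colony-stimulating factor Csf1. They were picked by symbol from the 32285 genes of the deposited count tables, and all 10 were found. The labels describe the line as an astrocytoma of the C57BL/6 strain, and both libraries came from cultures of it, with no tumor host. Adherent cells were kept in DMEM with 10% FBS and penicillin-streptomycin. Neurosphere cells, which float as aggregates, received in addition Epidermal Growth Factor and Fibroblast Growth Factor, each at 20 ng/mL, and B-27 diluted 1:50 for 12 days. Each culture gave 1 library by the 10x Genomics single cell 3′ v3 method, from frozen cells. By the labels both cultures were trypsinized and the neurospheres were also triturated.

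Chemokines are small proteins that guide cells along a gradient by way of receptors on the cell surface, and Csf1 keeps macrophages and microglia alive through the receptor Csf1r. In glioma they are studied because the tumor mass holds many microglia, monocyte-derived macrophages and some T cells. Cxcl10 is a classical interferon-induced gene whose receptor Cxcr3 sits on activated T cells and NK cells, and Ccl5 draws T cells and monocytes, in part through Ccr1. Ccl2 and Ccl7 act on monocytes through Ccr2, and their genes are typical targets of NF-kB, a transcription factor family switched on by inflammatory cytokines and stress. Ccl20 is the ligand of Ccr6, Cxcl1 recruits neutrophils through Cxcr2, and Cxcl12 binds Cxcr4 and the atypical receptor Ackr3. Cxcl16 and Cx3cl1 are made as membrane-bound proteins that proteases such as Adam10 and Adam17 can shed.

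After 13 mitochondrial and 101 ribosomal genes and low-content cells were left out, 5051 of 5764 adherent cells and 4276 of 4951 neurosphere cells remained, with 46290996 and 64943938 UMIs (unique molecular identifiers, each standing for 1 captured RNA molecule). The median kept cell had 8260 UMIs in the adherent and 13198.5 UMIs in the neurosphere library, so that shares of cells are also given after every cell was thinned to 5000 UMIs. For that step 587 adherent and 80 neurosphere cells had too few UMIs and were dropped. The libraries had 12 cell barcodes in common. Levels are the UMIs of a gene per 1000000 UMIs on the genes left (CPM), not divided by gene length, because the method counts 3′ ends. With 1 library per culture no difference has a replicate check, no test was run, and the 95% intervals cover counting error only. Those for levels and fold changes treat each UMI as a separate draw. For a gene with many UMIs in few cells they are therefore too narrow. Cells are not replicates of a culture.

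The labelled line was checked against marker lists. Of 8 astrocyte markers, Vim (5583 CPM adherent, 1763 CPM neurosphere), Slc1a3 (370 and 80.5 CPM) and S100b (161 and 255 CPM) were plentiful. Gfap had 30 and 27 UMIs, Aldh1l1 168 and 350 UMIs, Slc1a2 4 and 2 UMIs, and Aqp4 and Sox9 were at 0 in both. The 14 immune cell markers summed to 14.1 CPM (adherent) and 6.02 CPM (neurosphere), most of it Cd68 (485 and 276 UMIs) and Lyz2 (119 and 34 UMIs). The defining leukocyte and macrophage genes Ptprc (1 and 0 UMIs), Tyrobp, Adgre1 and C1qa (0 in both) were at or near 0. The other immune markers had 0 to 33 UMIs in a library, the highest being Fcer1g. The 6 endothelial markers summed to 1.51 and 3.94 CPM, with Pecam1 at 61 and 208 UMIs, Tek at 7 and 36, Emcn at 1 and 10, Kdr at 0 and 2, Cldn5 at 1 and 0, and Cdh5 at 0 in both.

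The members differed between the cultures in both directions. Cxcl10 and Ccl5 were over 2-fold lower in neurosphere cells, Ccl2 and Ccl7 were over 2-fold higher, Ccl20 and Csf1 were within 2-fold, and Cx3cl1, Cxcl16, Cxcl1 and Cxcl12 were nearly absent from both. Thus 6 of 10 members reached the minimum of 50 UMIs over both libraries, and of these 2 were higher and 2 lower, against 21.7% and 11.7% of all 14654 genes with that many UMIs. The median log2 fold change of these 6 was -0.15, beside 0.32 for all 14654 genes. Summed over the members, the level came to 346 CPM (adherent) and 58.9 CPM (neurosphere). Cxcl10 alone supplied 85.4% of these molecules in the adherent library and 41.9% in the neurosphere library, while the part of Ccl2 went from 0.281% to 41.3%.

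**Figure D1:**
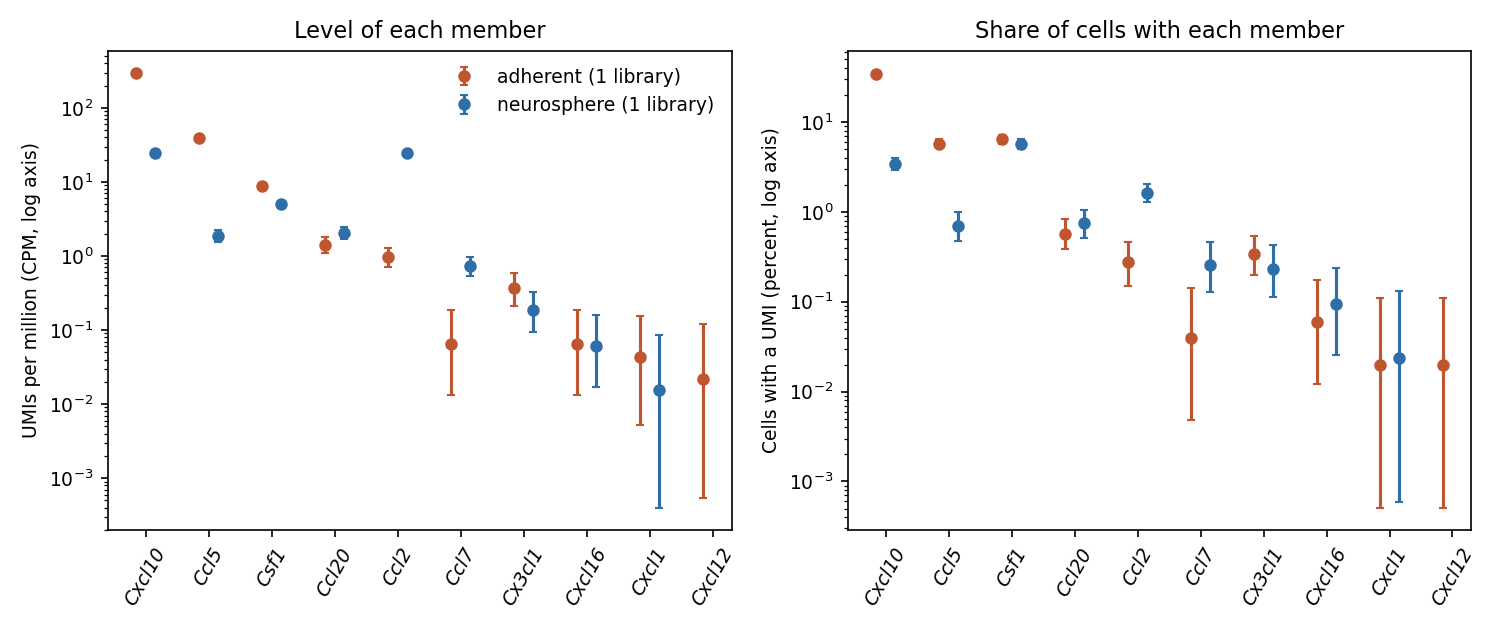
Level in CPM (left) and percent of kept cells with at least 1 UMI (right) of each member, on log axes, for the adherent (orange) and neurosphere (blue) library; bars are exact 95% intervals for counting error, and Cxcl12 has no neurosphere point because it had 0 UMIs there. Cxcl10 and Ccl5 sit lower in neurosphere cells, Ccl2 and Ccl7 higher, and Csf1 and Ccl20 lie close together.

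Cxcl10 (ENSMUSG00000034855, minus strand of chromosome 5, 92346638 to 92348889 in GRCm38) had 13675 UMIs in adherent cells, or 295 CPM (95% interval 290 to 300.4). In neurosphere cells it had 1600 UMIs, or 24.6 CPM (23.4 to 25.9). The level was 12.0-fold (11.4 to 12.6) higher in adherent cells, a log2 fold change of -3.58 from adherent to neurosphere. Without the 1% of cells richest in Cxcl10 in each library, 9736 and 125 UMIs were left and the log2 fold change was -6.77. That cut took 28.8% of the adherent and 92.2% of the neurosphere Cxcl10 UMIs. It weighs more on the library with fewer positive cells, so it is no even check of the fold change. Cells with a Cxcl10 UMI made up 34.2% of adherent cells (32.9% to 35.5%) and 3.41% of neurosphere cells (2.9% to 4.0%), and after thinning 27.3% and 1.64%. The share of positive cells differed more than the count within them. The mean over positive cells was 7.91 UMIs (SD 15.9, 1728 cells) in adherent and 11.0 UMIs (SD 33.5, 146 cells) in neurosphere cells, and the medians were 2 and 1.

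Ccl5 (ENSMUSG00000035042, minus strand of chromosome 11, 83525778 to 83530518) followed the same direction, from 1799 UMIs and 38.9 CPM (37.1 to 40.7) in adherent to 122 UMIs and 1.88 CPM (1.56 to 2.24) in neurosphere cells. It was 20.7-fold (17.2 to 25.1) higher in adherent cells. Cells with a Ccl5 UMI were 291 of 5051 adherent cells (5.76%, 5.13% to 6.44%) and 30 of 4276 neurosphere cells (0.702%, 0.474% to 1.00%). After thinning, the shares were 4.46% and 0.572%, which stayed apart at equal depth.

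Ccl2 and Ccl7, the ligands of Ccr2, went the other way. Ccl2 (ENSMUSG00000035385, plus strand of chromosome 11, 82035571 to 82037453) had 45 UMIs, 0.972 CPM (0.709 to 1.30), in adherent cells and 1578 UMIs, 24.3 CPM (23.1 to 25.5), in neurosphere cells, 25.0-fold (18.6 to 34.4) higher. The difference in positive cells was far smaller: 14 adherent cells (0.277%) and 70 neurosphere cells (1.64%), or 0.224% and 1.17% after thinning. A single neurosphere cell held 540 of the 1578 UMIs (34.2%), and 3 cells held more than 50% of them. With the 1 cell richest in Ccl2 left out of each library, which was tried once its counts had been seen, 26 and 1038 UMIs were left and the log2 fold change went from 4.64 to 4.83. With only the neurosphere cell left out it was 4.04, or 16.4-fold, as the adherent cell held 19 of the 45 UMIs. With all called cells, in which 3 low-content adherent barcodes add 28 Ccl2 UMIs, it was 3.95, or 15.4-fold. Both the 16.4-fold and the 15.4-fold value lie below the counting interval of the kept cells.

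Ccl7 (ENSMUSG00000035373, plus strand, 82045712 to 82047525) begins 8258 bases downstream of the end of Ccl2. Only 2 adherent cells held it, with 3 UMIs, against 11 neurosphere cells with 48 UMIs, a ratio of 11.4 with a counting interval from 3.68 to 57.2. The 20 and 14 UMIs of the top neurosphere cells made up 70.8% of its total. The low-content barcodes that the filter removed from the adherent library held 9 Ccl7 UMIs, 3 times the number in the kept cells, and with all called cells the log2 fold change was 1.51 in place of 3.51. Without the richest cell of each library it was 4.32, from 1 and 28 UMIs.

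Ccl20 (ENSMUSG00000026166, plus strand of chromosome 1, 83116766 to 83119167) was held by 29 adherent cells, with 66 UMIs, and by 32 neurosphere cells, with 133 UMIs. Its level was 1.43 CPM (1.10 to 1.81) and 2.05 CPM (1.71 to 2.43), 1.44-fold (1.06 to 1.96) higher in neurosphere cells, below the 2-fold limit. Csf1 (ENSMUSG00000014599, minus strand of chromosome 3, 107741048 to 107760469) had 410 and 325 UMIs, 8.86 CPM (8.02 to 9.76) and 5.00 CPM (4.47 to 5.58), 1.77-fold (1.53 to 2.05) higher in adherent cells. Under TMM scaling Csf1 passed the limit, with a log2 fold change of -1.04 in place of -0.82. The share of cells with Csf1 was 6.39% (5.74% to 7.10%) and 5.75% (5.07% to 6.49%), and 3.79% and 2.12% at 5000 UMIs per cell.

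The other members gave few molecules. Cx3cl1, known as fractalkine, had 1 UMI each in 17 adherent cells and 12 UMIs over 10 neurosphere cells. Cxcl16 had 3 and 4 UMIs, each in a cell of its own, and Cxcl1 had 2 and 1 UMIs in 1 cell of each culture. Cxcl12 had 1 UMI in adherent cells and was in 0 of 4276 neurosphere cells, which allows a share of cells with a UMI of up to 0.0702% and a level of up to 0.0462 CPM. For these 4 genes a difference between the cultures was not detectable at this depth.

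Promoters are shown for 3 members with at least 50 UMIs that were spread differently over cells: Cxcl10 and Ccl20, with many UMIs in few neurosphere cells, and Csf1, with single UMIs in many. They were taken from RefSeq (GRCm38.p6), as 250 bases before to 50 bases after the start, written 5′ to 3′ on the strand of the gene. Of the 10 members 6 were in the table. Cxcl16, Ccl2, Ccl5 and Ccl7 were not. Capitals mark matches, on either strand, to GGNNNTTCC, the core of kB sites that bind NF-kB, and to AAANNGAAA, the core of the element that interferon-activated factors bind. Cxcl10 lies at chr5:92348840-92349139 (minus strand), Ccl20 at chr1:83116516-83116815 (plus strand) and Csf1 at chr3:107760420-107760719 (minus strand).
Cxcl10: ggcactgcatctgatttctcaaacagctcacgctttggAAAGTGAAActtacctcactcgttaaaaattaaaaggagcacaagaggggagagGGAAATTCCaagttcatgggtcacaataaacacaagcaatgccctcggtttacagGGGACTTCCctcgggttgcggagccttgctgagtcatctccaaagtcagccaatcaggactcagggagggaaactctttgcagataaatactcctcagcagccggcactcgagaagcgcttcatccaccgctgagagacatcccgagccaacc
Ccl20: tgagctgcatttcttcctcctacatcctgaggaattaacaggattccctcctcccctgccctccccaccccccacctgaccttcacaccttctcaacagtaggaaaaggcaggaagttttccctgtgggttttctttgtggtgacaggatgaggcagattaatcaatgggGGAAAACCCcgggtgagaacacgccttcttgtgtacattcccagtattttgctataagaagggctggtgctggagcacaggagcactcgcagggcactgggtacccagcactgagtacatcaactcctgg
Csf1: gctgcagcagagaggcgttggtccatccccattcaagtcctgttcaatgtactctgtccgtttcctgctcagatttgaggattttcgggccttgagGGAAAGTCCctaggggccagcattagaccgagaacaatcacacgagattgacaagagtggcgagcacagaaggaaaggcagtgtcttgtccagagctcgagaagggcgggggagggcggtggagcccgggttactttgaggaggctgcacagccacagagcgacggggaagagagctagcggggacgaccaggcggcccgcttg
In Cxcl10 the interferon-type match stood at position -212 from the start and kB-type matches at -158 and -103. Ccl20 had a kB-type match at -80 and Csf1 at -154, both on the opposite strand and with no interferon-type match in the window. Of the members not printed, Cxcl1 held kB-type matches at -89 and -70, Cx3cl1 held one at -71, and Cxcl12 held none of either kind. Over all 32851 promoters of the table, 18.5% held a kB-type and 10.6% an interferon-type match, so such letters alone mark no site.

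Counts per cell divided the members into genes with many UMIs in few cells and genes spread thinly. For each gene, the mean number of UMIs in positive cells at 5000 UMIs per cell was divided by the number that an even (Poisson) spread of the same molecules would give. Genes with at least 50 UMIs after thinning were ranked by this ratio. In adherent cells, Ccl5 had the highest ratio of all 11412 genes ranked, 3.96, and Cxcl10 came in at rank 3 with 2.80, whereas Csf1 had 1.07 at rank 785. A ratio over 2 was reached by 0.0526% of these genes and by 2 of the 3 members ranked. Between Ccl5 and Cxcl10 stood Spp1, at 3.12. In neurosphere cells Cxcl10 ranked 4 of 11679 genes with 7.18, Ccl2 ranked 5 with 6.98, Ccl20 ranked 27 with 2.10 and Csf1 ranked 987 with 1.12. Here 0.248% of the genes and 3 of the 4 members ranked were over 2, and the top gene was Mucl2, at 12.8. The members were chosen with earlier results of these data known. Their counts beside the share of all genes therefore describe that choice too and are no test.

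**Figure D2:**
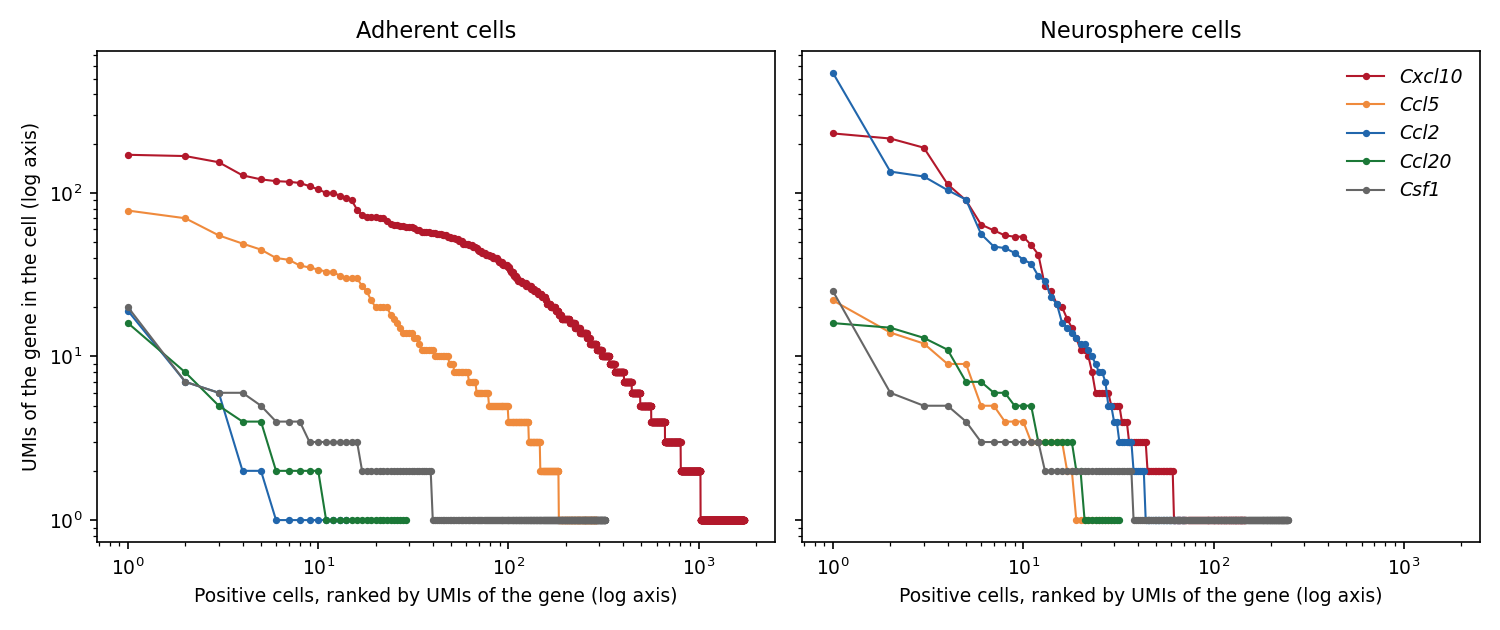
UMIs of 5 members in each positive cell, cells ranked from most to fewest, for adherent (left) and neurosphere (right) cells, both axes on a log scale. Cxcl10 reaches 171 UMIs (adherent) and 231 UMIs (neurosphere), Ccl2 reaches 540 in 1 neurosphere cell, and the Csf1 curve is at 1 UMI for most of its cells.

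Of the 1728 adherent cells with Cxcl10, 707 had 1 UMI, 459 had 2 to 4, 223 had 5 to 9 and 339 had 10 or more. The last group held 74.9% of all Cxcl10 UMIs. Among neurosphere cells the numbers were 85, 29, 10 and 22, and the 22 cells with 10 or more held 86.5% of the UMIs. For Ccl2 in neurosphere cells, 23 of 70 positive cells had 10 or more and held 93.2% of the UMIs. Most molecules of these chemokines thus came from a small part of the cells. For Csf1 the picture was different: 284 of 323 adherent and 209 of 246 neurosphere cells had exactly 1 UMI. Csf1 still had a few rich cells, 1 adherent cell with 20 UMIs among 2419 in all and 1 neurosphere cell with 25 UMIs, which also held 91 Ccl2 UMIs.

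Free RNA from broken cells can give single UMIs to cells that do not make a gene. A background share could not be read from a cell type known to lack these genes, as GL261 is 1 line, and its part in the cells with 1 UMI was not tested. With at least 2 UMIs asked of a cell, Cxcl10 was in 20.2% of adherent and 1.43% of neurosphere cells, Ccl5 in 3.62% and 0.421%, Ccl2 in 0.0990% and 1.01%, and Csf1 in 0.772% and 0.865%.

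At least 1 of the 10 members was detected in 2018 adherent cells (40.0%) and 445 neurosphere cells (10.4%). At least 2 members were found in 363 adherent cells (7.19%, 6.49% to 7.93%) and 78 neurosphere cells (1.82%, 1.44% to 2.27%), which is 18% and 17.5% of the cells with any. To set co-positive cells against depth, the number expected was taken within 10 strata of UMIs per cell, and pairs with at least 5 cells expected were counted. In adherent cells, Cxcl10 and Ccl5 were found together in 189 cells, against 109 expected, a ratio of 1.74 (1.5 to 2.0). Cxcl10 and Csf1 shared 164 cells against 124 expected (1.33, 1.13 to 1.54), and Ccl5 and Csf1 shared 18 against 20.8 (0.865, 0.512 to 1.37). The intervals of the pairs Cxcl10 with Ccl5 and Ccl5 with Csf1 did not overlap. The ratio exceeded 2 for 1 of 6 member pairs counted, Cxcl10 with Ccl2 (11 cells against 5.15, 2.14, 1.07 to 3.82), and for 0.0943% of all gene pairs with as many cells expected. This pair rests on the 14 adherent cells with Ccl2. Among genes in at least 1% of cells, 0 of 3 member pairs and 0.0803% of all gene pairs were over 2. With 2 UMIs required for a positive cell, the ratio of Cxcl10 and Ccl5 was 2.59 and that of Cxcl10 and Csf1 was 2.27.

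In neurosphere cells only 1 member pair had at least 5 cells expected, Cxcl10 with Csf1, seen in 25 cells against 9.57 (2.61, 1.69 to 3.86). It was over 2, as were 0.0995% of all gene pairs, or 0.0986% where both genes were in at least 1% of cells. The scarcer members fell below that minimum, and the pairs given next as numbers of cells were picked for the cells they shared. Each of the 11 cells with Ccl7 also held Ccl2, where 0.255 cells were expected. Ccl2 and Ccl20 shared 11 cells (0.599 expected), Cxcl10 and Ccl2 shared 18 (2.95 expected), Cxcl10 and Ccl5 shared 10 (1.19 expected), and Ccl20 and Csf1 shared 14 (1.95 expected).

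**Figure D3:**
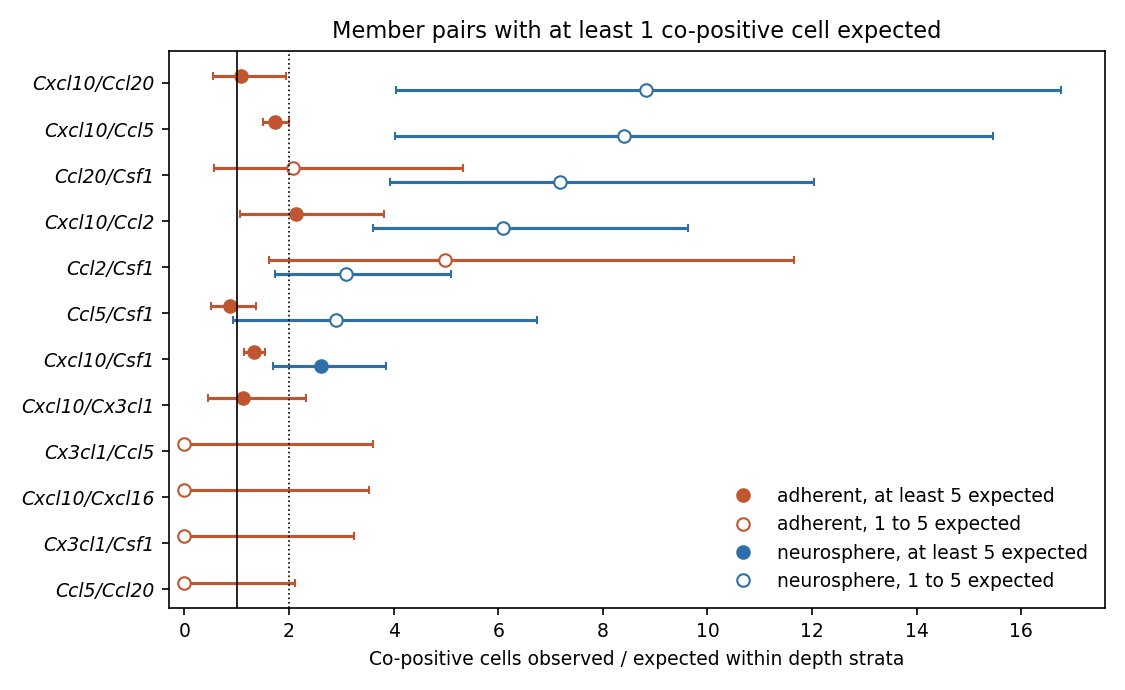
Cells positive for both genes of a pair, divided by the number expected within strata of depth, for adherent (orange) and neurosphere (blue) pairs with at least 1 such cell expected; filled points have at least 5 expected, bars are exact 95% Poisson intervals of the count, the solid line marks 1 and the dotted line 2. Adherent Cxcl10 with Ccl5 lies at 1.74 and with Csf1 at 1.33, neurosphere Cxcl10 with Csf1 lies at 2.61, and Ccl5 with Ccl20 is among the adherent pairs at 0.

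Single cells at the top of each list show which members came together. The adherent cells richest in Cxcl10 held 171 and 168 UMIs of it and 36 and 33 UMIs of Ccl5, but the third, with 154, held 0 of Ccl5. The adherent cell richest in Ccl5, with 78 UMIs, held 53 of Cxcl10. In neurosphere cells, the 3 cells richest in Cxcl10 (231, 215 and 189 UMIs) held 0 Ccl2, and the 3 richest in Ccl2 (540, 135 and 126 UMIs) held 3, 2 and 0 Cxcl10. The third of these Ccl2 cells also held 20 Ccl7, 5 Ccl5 and 5 Ccl20 UMIs. Over all neurosphere cells, Ccl2 was in 1.26% of those without Cxcl10 (0.942% to 1.65%), in 9.41% with 1 UMI (4.15% to 17.7%) and in 20.7% with 2 to 4 (7.99% to 39.7%). It was in 3 of the 10 cells with 5 to 9 Cxcl10 UMIs and in 1 of the 22 cells with 10 or more (4.55%, 0.115% to 22.8%).

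The genes whose counts ran most like a member were found by Pearson's r of log(1 + UMIs per 10000) across cells, among genes in at least 1% of the cells. These values describe 1 library each, and cells share its depth and its free RNA. For Cxcl10 in adherent cells (5051 cells, 12518 genes) they were the interferon-induced genes Rsad2 (0.53), Ifit1 (0.43) and Isg15 (0.34). For Ccl5 they were Cxcl10 (0.27), Rsad2 (0.26) and Oasl1 (0.20), so that the nearest gene to Ccl5 was another member. In neurosphere cells (4276 cells, 13617 genes) Cxcl10 ran with Ifit2 (0.42), Rsad2 (0.38) and Ifi47 (0.35). Csf1 had weak relations only, led by Txnip (0.17), BC037704 (0.13) and Cp (0.13) in adherent cells and by Cebpd (0.17), Gbp2 (0.16) and Nfkbia (0.15) in neurosphere cells. Ccl2 in neurosphere cells was below the 2% of cells set for this list and was looked up after its values were seen: Serpinf1 (0.21), Ier3 (0.21) and Arhgap22 (0.20) came first.

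Adherent cells with more Cxcl10 UMIs more often held Ccl5 and had more interferon-response RNA. Ccl5 was found in 3.07% of the 3323 cells without Cxcl10 (2.51% to 3.71%), in 6.22% of cells with 1 UMI, 6.32% with 2 to 4, 13.5% with 5 to 9 and 25.4% of the 339 cells with 10 or more (20.8% to 30.4%). The 22 interferon-response genes measured summed to 6766 CPM in cells without Cxcl10 and to 7395, 8354, 9289 and 11260 CPM in the groups above. Bst2 (4016 CPM) and Isg15 (1928 CPM) supplied most of the 7527 CPM of this sum over the whole adherent library. Rsad2, an antiviral enzyme, went from 122 to 1027 CPM between the outer groups, and Ifit1 from 113 to 613 CPM. A list of 20 NF-kB pathway genes moved from 508 to 552 CPM, of which Sod2 alone supplied 278 CPM over the whole library, and its member Nfkbia from 70.3 to 105 CPM. Median depth also differed, at 7737 UMIs in cells without Cxcl10 and 9807 UMIs in cells with 10 or more, and its part in the shares was not tested here.

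The neurosphere library gave steeper steps on few cells. Its 4130 cells without Cxcl10 had an interferon-response sum of 1264 CPM and its 22 cells with 10 or more had 13581 CPM, above the 11260 CPM of the matching adherent group. Rsad2 was at 34.6 CPM in the first and 2507 CPM in the second group. The NF-kB list was at 490 and 760 CPM. Neurosphere cells rich in Cxcl10 were few, while the bulk of that culture was low both in Cxcl10 and in interferon-response RNA.

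**Figure D4:**
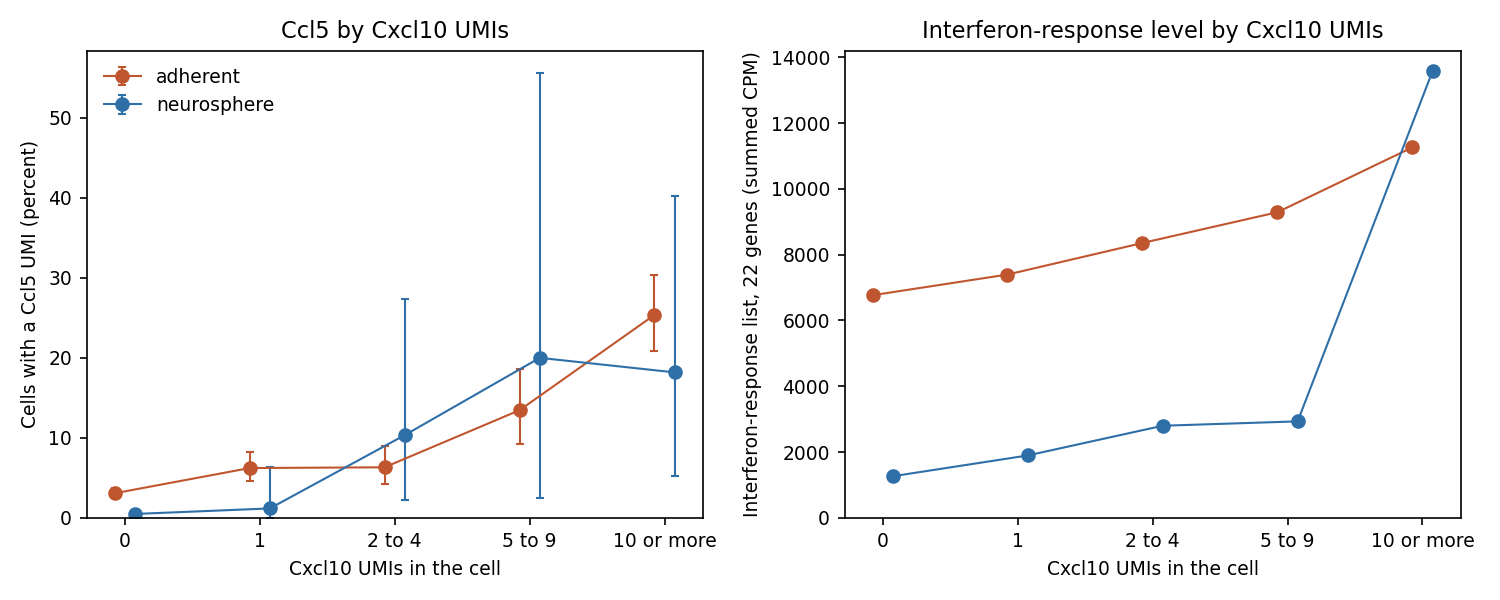
Percent of cells with a Ccl5 UMI, with exact 95% binomial intervals (left), and summed CPM of 22 interferon-response genes (right), in cells grouped by their number of Cxcl10 UMIs, for adherent (orange) and neurosphere (blue) cells. Adherent Ccl5 climbs from 3.07% to 25.4%, and the interferon-response sum with 10 or more Cxcl10 UMIs reaches 11260 CPM (adherent) and 13581 CPM (neurosphere).

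Cells with Ccl2 had more RNA of the NF-kB list than cells without, and so had the neurosphere cells with Cxcl10. In both cases most of the difference came from Nfkbia, a gene of that list. The 70 neurosphere cells with Ccl2 had the NF-kB list at 812 CPM, against 493 CPM in the 4206 cells without, and the 23 cells with 10 or more Ccl2 UMIs had 965 CPM. Nfkbia, the inhibitor that NF-kB itself induces, was at 297 CPM in Ccl2 cells and 97.2 CPM in the others. Grouped by Cxcl10 instead, the NF-kB list stood at 826 CPM with 2 to 4 UMIs and 760 CPM with 10 or more, and Nfkbia at 328 and 286 CPM, against 95.6 CPM of Nfkbia in cells with 0. Lcn2, a secreted iron-carrier-binding protein, was at 70.9 CPM in Ccl2 cells and 13.9 CPM in the others. The interferon-response sum was at 1992 CPM in Ccl2 cells and 1365 CPM in the others. Median depth was 17112 UMIs in cells with Ccl2 and 13144 UMIs in those without.

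Cytokines known to induce the members were scarce, and the few Ifnb1 cells were rich in Cxcl10. Ifnb1, the gene of interferon beta, was held by 10 adherent cells, with 23 UMIs, and by 1 neurosphere cell, with 2 UMIs. Each of the 10 adherent cells held Cxcl10, 9 of them with 10 or more UMIs (median 44.5), and 7 held Ccl5. The neurosphere cell held 90 Cxcl10 UMIs. Il6 had 52 UMIs in 47 adherent and 4 in 2 neurosphere cells, and 31 of the 47 held Cxcl10. Tnf had 11 and 3 UMIs, of whose 10 adherent cells 3 held Cxcl10. Il17a (2 and 4 UMIs), Lta (1 and 2) and Tnfsf11 (0 and 1) were near absent, and Il1a, Il1b, Ifna4 and Ifng were at 0 in both.

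The members' level was also followed across clusters of each culture, which were computed with all 10 members left out of the variable genes. In adherent cells Cxcl10 was detected in all 10 clusters, from 12.8% of the 47 cells of cluster 9 (4.83% to 25.7%) to 53.5% of the 626 cells of cluster 3 (49.5% to 57.5%), which was led by Ube2c. Cluster 3 was also the deepest, at a median of 12292 UMIs against 2600 UMIs in cluster 9. In CPM, which does not grow with depth, cluster 0, led by histone genes such as Hist1h1b, was highest with 453 CPM, cluster 3 had 340 CPM and cluster 9 had 70.2 CPM. Ccl5 ranged from 2.13% to 11.5% of cells, again highest in cluster 3, but in CPM it was highest in clusters 0 (63.7 CPM) and 6 (63.2 CPM), above cluster 3 (49.4 CPM). Csf1 ranged from 3.45% in cluster 7 to 11.7% in cluster 6, led by Tex14.

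Neurosphere cells with Cxcl10 were also found in all 10 clusters of that culture and those with Ccl2 in 9, with a large part of the UMIs in a few of them. Cluster 4 (450 cells, led by Ifit3, S100a6 and Zbp1) held 48.4% of all Cxcl10 UMIs at 131 CPM and had the highest interferon-response sum, 3327 CPM. Cluster 9 (129 cells, led by Cox6a2, Nupr1 and Tenm4) had Cxcl10 in 11.6% of its cells, the highest share, and at 218 CPM, but 215 of its 302 UMIs were from 1 cell, and without that cell it had 63.5 CPM. The same cluster had Ccl2 at 526 CPM, which fell to 139 CPM when the cell with 540 UMIs was left out, and Ccl20 in 7.75% and Csf1 in 14.7% of its cells. Cluster 7 (339 cells, led by Prss56, Fosl1 and Phlda2, median 20986 UMIs) had the highest share of Ccl2 cells, 6.49%, and Cxcl10 in 10.0%. Clusters 7 and 9 together held most of the Ccl2 (33.0% and 46.2%, the latter with the 540 UMIs of that cell) and Ccl7 (41.7% and 47.9%) UMIs, and cluster 0, of 675 cells, had 0 Ccl2 UMIs. At a resolution of 0.8 no cluster was led by Cox6a2. The cluster led by Ifit3 then held 67.1% of the Cxcl10 and 55.5% of the Ccl2 UMIs, and the cluster led by Prss56 held 35.6% of the Ccl2 UMIs. Without the cell with 540 Ccl2 UMIs the order turned, to 32.4% and 54.1%. The Prss56 cluster also had the highest share of Cxcl10 cells, 9.85% (7.13% to 13.2%), against 8.11% (5.91% to 10.8%) in the Ifit3 cluster. But the Prss56 cluster was deeper, at a median of 22392.5 against 11593.5 UMIs. In CPM its Cxcl10 level was far lower, 15.2 against 161 CPM in the Ifit3 cluster.

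**Figure D5:**
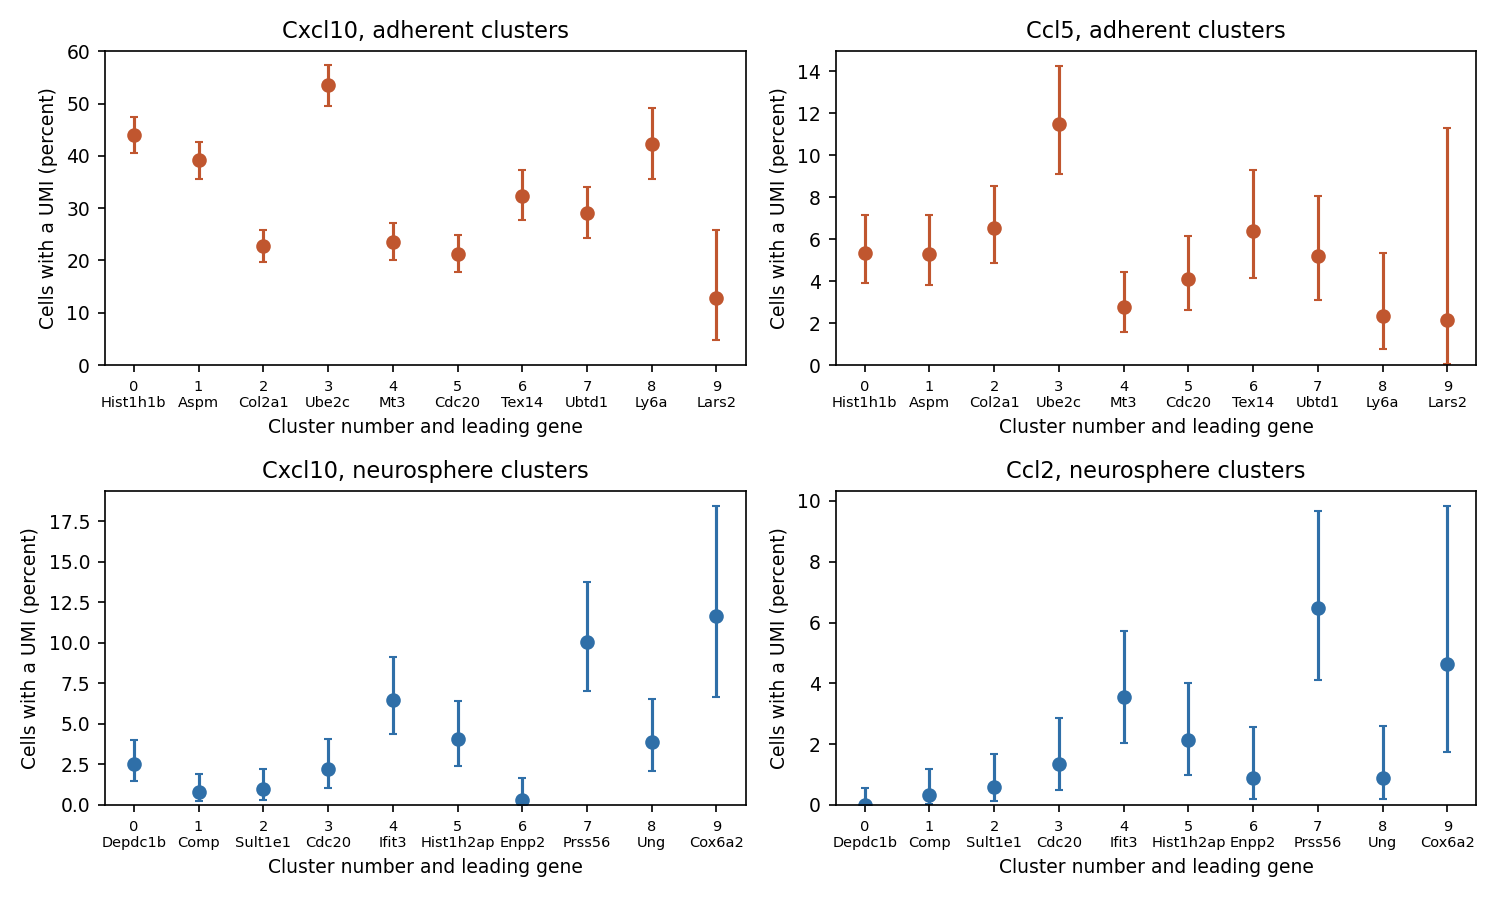
Percent of cells with a UMI in each cluster, with exact 95% binomial intervals, for Cxcl10 and Ccl5 in adherent clusters (top) and Cxcl10 and Ccl2 in neurosphere clusters (bottom); the x axis gives the cluster number and its leading gene, and each panel has its own scale. Cxcl10 is found throughout the adherent clusters, with 53.5% in cluster 3, and in neurosphere cells Cxcl10 and Ccl2 are highest in clusters 4, 7 and 9.

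Receptors for the members were mostly near absent from both cultures. Of 25 receptor genes 5 reached 50 UMIs, 1 of them over 2-fold higher in neurosphere cells (21.7% of all genes) and 0 over 2-fold lower (11.7% of all genes), with a median log2 fold change of -0.59. In adherent cells, Ccr2, the receptor of Ccl2 and Ccl7, had 1 UMI, and 3.44% of neurosphere cells held 168 UMIs of it. Ackr3, which binds Cxcl12, was at 30.8 and 20.0 CPM, while Cxcr4 was at 0 in both. Cx3cr1 had 103 and 96 UMIs, Cxcr2 20 and 27, Csf1r 5 and 19, Cxcr6 2 and 6, Cxcr3 1 and 2, Ccr6 0 and 1, and Ccr1 0 in both. Ccr10 (log2 fold change -0.53) and Cxcr5 (-0.80) completed the genes with enough UMIs.

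Most other chemokines were near absent too. Of 28 measured, 5 reached 50 UMIs, with 2 higher and 0 lower, against 21.7% and 11.7% of all genes, and a median log2 fold change of 0.55. Ccl25 was the most abundant, at 50.9 CPM (adherent) and 74.8 CPM (neurosphere), and its 61.7% of neurosphere cells exceeded the share of any member. Cxcl2, a neutrophil chemokine, had 7 and 116 UMIs, of which 105 were in 1 neurosphere cell that also held 31 Ccl2, 13 Ccl20 and 3 Ccl7 UMIs. With the richest cell left out of each library, which was tried after its count was seen, 3 and 11 UMIs were left, a log2 fold change of 1.39 on fewer than the minimum of 50 UMIs. With only the neurosphere cell left out it was 0.16. Cxcl13 had 11 and 47 UMIs, Ccl27a a log2 fold change of -0.20 and Ccl28 of -0.29. Ccl4, a chemokine with 36 UMIs in adherent cells, missed the minimum and was looked up after its values were seen: 11 of its 12 adherent cells held 10 or more Cxcl10 UMIs. Among growth factors related to Csf1, Il34, the other ligand of Csf1r, was nearly level (log2 fold change 0.13), and Flt3l (-1.37) and Kitl (-2.0) were over 2-fold lower, 2 of the 3 with enough UMIs, with a median of -1.37. Of the proteases that shed or trim chemokines, Adam10 was higher (1.18), Adam17 was within 2-fold (0.37) and Mmp2 was lower (-2.79), with a median of 0.37.

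Genes of the pathways known to induce the members differed between the cultures in unequal measure, and the counts stand against 21.7% of all genes higher and 11.7% lower. Of 22 interferon-response genes, 14 were over 2-fold lower and 0 higher in neurosphere cells, with a median log2 fold change of -1.48, and their sum went from 7527 to 1379 CPM. Bst2 (-3.02) and Ifi44 (-2.91) were lowest, and Irf9 (0.19) and Irf1 (-0.02) highest. Of 18 NF-kB pathway genes 1 was higher and 1 lower, with a median of 0.32, the same as all genes to that precision. Tnfaip3, which shuts off NF-kB signaling, stood apart at 3.48, followed by Rela at 0.93, with Cd40 (-1.07) and Icam1 (-0.88) at the other end. Of 12 receptors and sensors for the inducing signals 1 was higher and 1 lower (median 0.26), Ifngr1 at 1.96 and Tlr4 at 0.67 being highest and Tnfrsf1b at -2.42 and Ifnar2 at -0.32 lowest.

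Genes that respond to handling of cells, among other stimuli, differed as well. Immediate-early genes respond within minutes to many stimuli, and trituration, enzymes and other stress are only some of these. Of 17 such genes, 8 were over 2-fold higher and 4 lower in neurosphere cells (21.7% and 11.7% of all genes). Their median was 0.90 and their sums were 1355 and 2277 CPM. Btg2 (2.53) and Nr4a1 (2.0) were highest, and Ier3 (-2.51) and Klf4 (-1.79) lowest. Within neurosphere cells the sum was 2327 CPM in cells with Ccl2 and 2276 CPM in cells without, and 3793 CPM in cells with 10 or more Cxcl10 UMIs against 2260 CPM in cells with 0. The part of handling in the differences between cultures was not tested. It cannot be told apart from culture form or from the growth factors added to the neurospheres only in this design.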

How the data were processed

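The data are 2 scRNA-Seq libraries. For each, the authors deposited the raw count of UMIs per gene and called cell, made with Cell Ranger 7.0.1 on mm10 per the labels, before any filter or normalization. The annotation and the setting for reads in introns are not given in the sources used here. Mitochondrial and ribosomal genes were removed, and then cells with fewer than 1000 UMIs or with fewer than 1250 (adherent) or 2250 (neurosphere) genes. The libraries held 68531063 and 82832873 UMIs before this. UMIs were summed over cells and given as CPM, with exact 95% intervals (Poisson, binomial, conditional). A gene at 0 UMIs was given a floor of 3 counts per library. Genes were called by size, over 2-fold, where the libraries together held 50 UMIs or more, and no test was run. Member pairs were counted with no minimum share of cells, and the share of all gene pairs was taken with none and, as planned, over genes in at least 1% of cells. Clusters came from Seurat 5.3.0 (R 4.3.3) with 2000 variable genes, 17 and 18 PCs and a resolution of 1.0, and TMM factors from edgeR 4.0.16. Doublets were not called, and cells over the 95th percentile of UMIs were left out as an alternative. Other alternatives changed the cell filter, the scaling, the count minimum, the strata, thinning, the UMIs asked of a positive cell and the resolution. Positions came from GENCODE M21 on GRCm38, in which 32158 of 32285 identifiers matched. Python 3.11.15 with numpy 2.4.6, scipy 1.17.1 and pandas 2.3.3 was used. The fold changes and pair ratios were tested on simulated Poisson counts, with shared bursts planted for the pairs. The simulated fold changes lack the uneven spread of Cxcl10, Ccl5 and Ccl2, so the interval coverage found there does not carry over to these genes.

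The members and lists were chosen with earlier results of these data known. Text names all members, their receptors, inducing cytokines and, by name or range, markers, the 2 highest and 2 lowest log2 fold changes of each other list, and the 3 genes most like each member with a UMI in at least 2% of cells. A gene that this rule would name is not reported here. Genes named outside this rule are said to be so, or are leading genes of clusters, of the ranking by UMIs per positive cell, or genes shown over groups of cells.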

Additional observations from a re-analysis of the deposited data

Results flagged for a closer look

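The barcodes left out by the cell filter, which enter only the alternative with all called cells, held UMIs of several members beyond the 3 that the floor allows. The 713 barcodes removed from the adherent library (median mitochondrial share 48.8%) held 103 Cxcl10 UMIs in 51 barcodes, 28 Ccl2 UMIs in 3 barcodes, 11 Ccl5 UMIs, 9 Ccl7 UMIs and 8 Csf1 UMIs. As CPM on the genes left, Cxcl10 was at 263 CPM in these barcodes and 295 CPM in the kept cells, whereas Ccl2 was at 71.4 CPM against 0.972 CPM, with 18 of its UMIs in 1 barcode, and Ccl7 was at 23.0 CPM against 0.0648 CPM. The 675 barcodes removed from the neurosphere library (median mitochondrial share 87.0%) held 56 Cxcl10 UMIs in 8 barcodes, 4 Ccl2 UMIs and 10 Csf1 UMIs. Cxcl10 was at 97.4 CPM there, against 24.6 CPM in the kept cells.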

How the results depend on the processing

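Cxcl10 and Ccl5 stayed over 2-fold lower, and Ccl2 over 2-fold higher, in neurosphere cells under the alternatives that gave a value, with log2 fold changes from -6.77 to -3.36, from -4.59 to -4.15, and from 3.95 to 4.86. Ccl7 went from 1.51 to 4.32. Leaving out the 1% of cells with the most UMIs of a gene gave a value for Cxcl10 and Csf1 only, since it removed all positive cells of Ccl2, Ccl7 and Ccl20 (adherent) and of Ccl5, Ccl7 and Ccl20 (neurosphere). The -6.77 of Cxcl10 came from this cut, which took 28.8% of its adherent and 92.2% of its neurosphere UMIs. TMM scaling moved every log2 fold change by -0.22, and a total that includes the mitochondrial and ribosomal UMIs moved it by 0.22. Of 44 log2 fold changes recomputed, 36 lay within the counting interval of the reported value and 0 changed sign. Shares of cells moved with thinning and with 2 UMIs asked for (28 of 40 values). The number of adherent pairs over 2 was 0 without strata, 0 without cells over the 95th percentile and 2 with 2 UMIs asked for. Under the first pair of settings the ratio of Cxcl10 and Ccl2 was 2.30 and 2.5, but with 4.79 and 3.99 cells expected the pair was no longer counted. When thinned the number was 1, but the pair was Cxcl10 with Ccl5 (2.23), as Cxcl10 with Ccl2 had 2.78 cells expected. In neurosphere cells it was 2 with 20 strata, 0 when thinned and 0 with 2 UMIs, where no pair kept 5 expected cells. At a resolution of 0.8, the highest share of Cxcl10 cells was 53.1% in adherent and 9.85% in neurosphere clusters. This neurosphere cluster was led by Prss56 in place of Cox6a2, and in CPM the neurosphere cluster led by Ifit3 was highest. No paired analysis was possible because each culture has 1 library. Depth limits the 4 members with fewer than 50 UMIs.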
